A study of Rattus norvegicus with 6 samples.

Results

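The genes described here encode mitochondrial fatty acid oxidation and ketone body metabolism in rat liver. They run from the carnitine shuttle through the beta-oxidation spiral and electron transfer to the ketone body enzymes, with the linked branched-chain and propionyl-CoA steps. Of the ketone body enzymes the list holds Acat1 and Bdh1. They were chosen by name, as the probes whose accession maps to any of 31 listed rat symbols. Of the 31 genes, 29 were matched, by 43 of the 61657 non-control probes. Acad8 and Acad10 were matched to no probe and have no expression value here. A filter on dim probes kept 41 of the 43 probes and all 29 matched genes, out of 33428 probes and 10257 named genes tested in the whole series. Both probes removed belonged to Cpt1b and were not well above background on any of the 6 arrays.

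Liver RNA came from 6 male Sprague-Dawley rats (Crl:CD(SD)), bought at 5 weeks of age and kept on a basal diet. Corn oil alone went to 3 control rats, and o-anthranilic acid was dosed to the other 3 at 1000 mg/kg/day, with 1 single-colour array per rat. Anthranilic acid is 2-aminobenzoic acid, an intermediate of tryptophan breakdown. The dosing time is 9 weeks in the treatment protocol and 28 days in the series design, so it is not settled here. With 1 array per rat, the spread within a group holds differences between animals and between arrays, which cannot be told apart. The share of probes well above background ran from 53.3% to 58.0% by array, and no spot was saturated. All 10 hepatocyte markers passed the filter on dim probes.

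Fatty acids enter mitochondria as carnitine esters. The outer-membrane carnitine palmitoyltransferase makes the ester, a translocase carries it inward, and the inner-membrane enzyme returns the acyl group to coenzyme A. Each turn of beta-oxidation then uses an acyl-CoA dehydrogenase, a hydratase, a 3-hydroxyacyl-CoA dehydrogenase and a thiolase, and passes electrons through the electron transfer flavoprotein to the respiratory chain. In the fasted liver much of the acetyl-CoA becomes ketone bodies, and many of these genes are induced there through the nuclear receptor PPAR-alpha.

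None of the 29 genes passed the test in either direction. Across the series, 0% of named genes and 0.0329% of probes passed by limma at adjusted p under 0.05, so the count among these genes is read against a background close to 0. Differences are given as log2 signal of treated livers minus that of corn oil livers. Over the 29 genes they ran from -0.81 for Cpt1b, read by 1 of its 3 probes, to 0.24 for Echs1. Their median was -0.13 against 0.0085 over all named genes tested. Of the 29, 20 were below 0 (68.97%), where 48% of all genes were. This split moved with the scaling. It was 18 of 29 below 0 with median scaling, where 37.2% of all genes were. With the 75th percentile taken over probes above background on all arrays it was 24, against 53.4% of all genes. With quantile normalisation it was 25, against 49.4%. Median scaling and that percentile each move all members by the same amount. At an unadjusted p under 0.05 there were 3 genes, all at lower signal in treated livers, namely Crat, Acadm and Acaa2. The background at that p was 6.15% of genes lower and 5.47% higher. Leaving out corn oil replicate 1, 2 or 3 changed the count of 3 to 0, 0 or 4. Leaving out treated replicate 1, 2 or 3 changed it to 2, 1 or 4. These fits have fewer arrays, and the share of all genes at that p was not taken for them. The arrays of the 2 groups did not overlap for Crat, Acadm, Acads and Acaa2, at lower signal in treated livers, against 9.13% of all genes. They also did not overlap for Echs1 and Ivd, at higher signal, against 10.7%. In whole liver, fewer cells of a type and less RNA per cell cannot be told apart.

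The size of change that the 3 arrays per group could resolve was similar for most members. The median standard error (SE) of a difference was 0.12, the same as over all genes (0.12). The 95% interval of the difference, which is not adjusted for the number of genes, lay within -1 to 1 on the log2 scale, a 2-fold change either way, for 27 of the 29 genes and for 89.1% of all genes. The exceptions were Cpt1a (-1.34 to 0.52) and Cpt1b (-2.0 to 0.39). These are also the members with the widest spread between the arrays of a group.

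**Figure D1:**
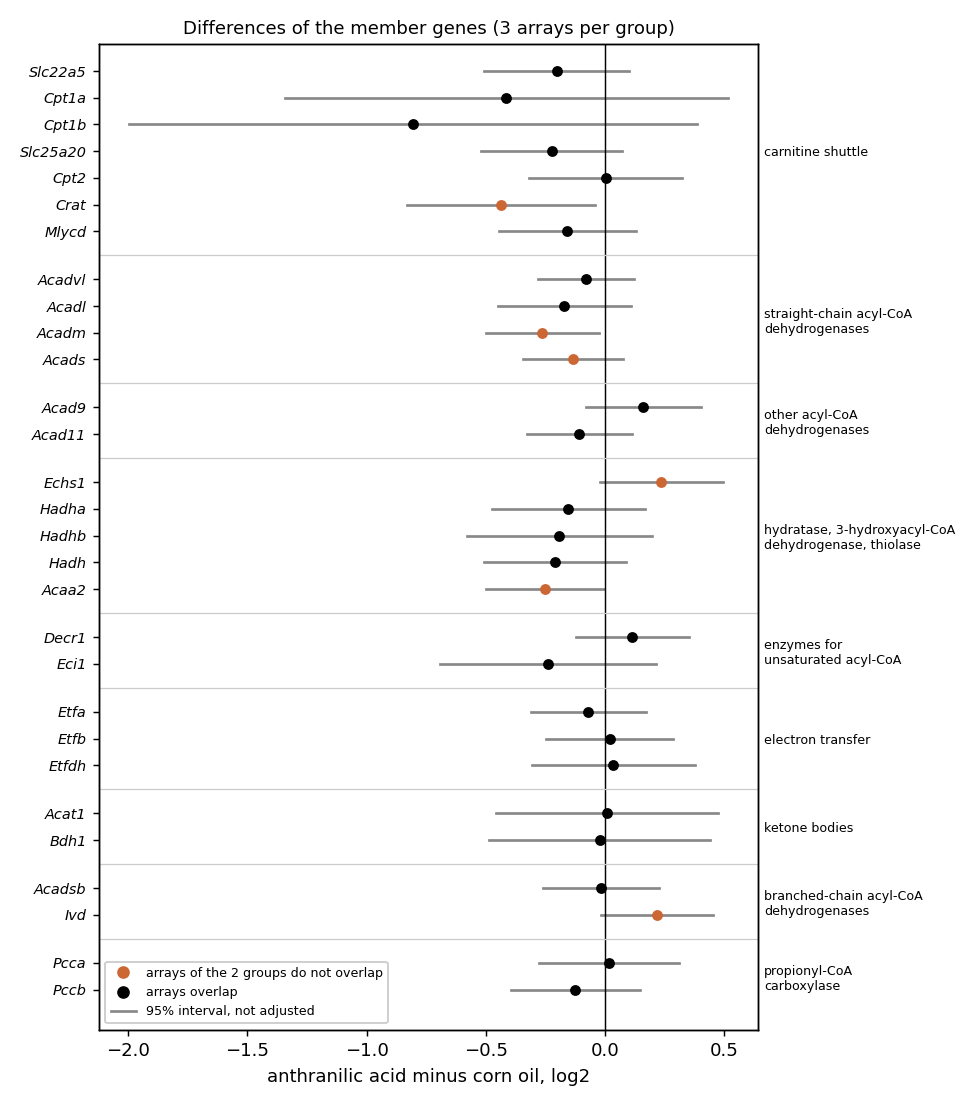
Difference of each of the 29 genes between anthranilic acid and corn oil livers (x axis, log2 scale, 3 arrays per group), ordered by step of the pathway. Points are the fitted differences and lines their unadjusted 95% intervals, and orange points mark the 6 genes whose arrays do not overlap between groups. Crat, Acadm and Acaa2 have intervals that stay below 0, and no interval stays above 0.

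The promoters of these genes were read for the element that PPAR-alpha and other nuclear receptors bind. RefSeq promoter windows (GRCr8, 250 bases before to 50 after each gene's start) were at hand for 27 of the 31 genes. The exceptions were Cpt1b, Acadl, Acaa2 and Decr1, while Acad8 and Acad10 were among the 27. Each window was searched on both strands for 2 copies of AGGTCA in the same direction with any 1 base between them, allowing 2 mismatches in the 12 fixed bases. A match was found in 6 of the 27 windows (22.2%), against 3.77% of all 33469 windows and 3.02% of the 8861 windows of genes tested here. The median GC content was 60.0% in the members' windows, 51.7% in all windows and 60.0% in the windows of genes tested. Exact matches were rare, in 18 of all 33469 windows and 4 of the 8861 windows of genes tested, and in no member. Each match follows with the matched bases in capitals and 8 flanking bases on each side, as a sequence feature that some members share and that took no part in choosing them. A match is a description of letters, not evidence of binding.
Acadvl, 17 bases before the start, 1 mismatch, chr10:55236702-55236730, minus strand: gggagaagAGGTCAGTGGTCAaggcttca
Crat, 223 bases before the start, 2 mismatches, chr3:34087302-34087330, minus strand: gacgttcaAGGACACCGGTCAgacttgga
Echs1, 155 bases before the start, 2 mismatches, chr1:204333641-204333669, plus strand: ggaagatcAGATCAGAGGTCTtttagcgg
Etfa, 154 bases before the start, 2 mismatches, chr8:64788099-64788127, plus strand: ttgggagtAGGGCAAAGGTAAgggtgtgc
Pcca, 4 bases before the start, 2 mismatches, chr15:106034606-106034634, plus strand: ccctgacgAGGTGAGAGTTCAgcggccag
Slc25a20, 16 bases after the start, 2 mismatches, chr8:118243580-118243608, plus strand: cttaatgtAGGTGAAAGGTCGgtgtagcc
The 6 genes with a match did not share a direction. Their differences were -0.080 for Acadvl, -0.44 for Crat, 0.24 for Echs1, -0.070 for Etfa, 0.016 for Pcca and -0.22 for Slc25a20.

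The carnitine shuttle had a median difference of -0.22 over 7 genes, 6 of them below 0. Without treated replicate 2 this median was -0.14, and without treated replicate 3 it was -0.32. Values below are log2 signals relative to the array's 75th percentile, in the order of replicates 1, 2 and 3, and they are not compared between genes. Crat, the carnitine acetyltransferase that buffers short acyl groups, read 6.36, 5.95 and 5.76 in corn oil livers and 5.65, 5.53 and 5.58 in treated livers. All 3 treated arrays lay below all 3 corn oil arrays, and corn oil replicate 1 stood above the other two. The difference was -0.44 (SE 0.16, limma adjusted p = 0.387), or -0.27 without corn oil replicate 1. A second Crat probe, dimmer than the first, stood at -0.41 (SE 0.22).

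Cpt1a, the liver form of the outer-membrane carnitine palmitoyltransferase and the rate-controlling entry step, read 4.49, 4.75 and 5.08 in corn oil livers and 4.15, 3.72 and 5.20 in treated livers. Treated replicates 1 and 2 were the lowest of the 6 livers and treated replicate 3 was the highest, so the groups overlapped. The difference was -0.41 (SE 0.38, limma adjusted p = 0.677). Anthranilic acid replicate 3 was the only array on slide 2 and had a separate scan date, while the other 5 shared slide 1. On slide 1 the corn oil arrays were in row 1 and treated replicates 1 and 2 in row 2. Treatment and row therefore cannot be told apart within slide 1. Within slide 1 the Cpt1a difference was -0.84 (SE 0.22, limma adjusted p = 0.355), without treated replicate 2 it was -0.094, and without corn oil replicate 3 it was -0.26. The part of the slide, the row or the scan in this was not tested.

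Cpt1b, the form best known from muscle, had 3 probes. The other 2 read between -6.35 and -4.30 and were not well above background on any of the 6 arrays. Why the probes disagree was not tested, so the Cpt1b values rest on 1 probe. That probe read 2.06, 1.39 and 0.37 in corn oil livers and 0.80, -0.26 and 0.85 in treated livers. Corn oil livers spread widely, and the third of them lay below treated replicates 1 and 3. The difference was -0.81 (SE 0.49, limma adjusted p = 0.528), at -0.41 without corn oil replicate 1, -0.44 without treated replicate 2 and -1.26 without corn oil replicate 3. Of 6 muscle and fat markers, 2 passed the filter (Mb and Ckm), and Tnnt3 and Adipoq were not well above background on any array. The summed linear signal of Mb and Ckm, relative to the 75th percentile, was 0.615 to 0.698 in corn oil livers and 0.509 to 0.536 in treated livers. Their part in the Cpt1b values was not tested.

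Slc25a20, the translocase that carries acylcarnitines across the inner membrane, read 4.81, 4.66 and 4.57 against 4.34, 4.38 and 4.66. The difference was -0.22 (SE 0.12, limma adjusted p = 0.491). Slc22a5, the carnitine transporter of the plasma membrane, read -0.42, -0.62 and -0.49 against -0.81, -0.84 and -0.49, a difference of -0.20 (SE 0.13, limma adjusted p = 0.534), and its second probe stood at -0.30. In both genes treated replicates 1 and 2 lay below every corn oil liver, and treated replicate 3 lay among them. Without that array the Slc22a5 difference was -0.31. Mlycd, which removes the malonyl-CoA that inhibits Cpt1a, was at -0.16 (SE 0.12) with a second probe at -0.14. It was -0.25 without corn oil replicate 3, -0.092 without corn oil replicate 1 and -0.088 without treated replicate 2.

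Cpt2, the inner-membrane carnitine palmitoyltransferase, stood apart from the other shuttle genes in having a difference near 0. It read 5.27, 5.17 and 5.15 against 5.14, 5.00 and 5.45, with a difference of 0.0024 (SE 0.13) and a 95% interval of -0.32 to 0.32. Its sign turned under 8 of 17 alternatives, some of which cannot change a difference. The contrast between Cpt2 and the rest of the shuttle was not tested.

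All 4 straight-chain acyl-CoA dehydrogenases, which take the first oxidation step on very long, long, medium and short chains, stood below 0, under each scaling too, with a median of -0.15. Acadm, the medium-chain enzyme, read 7.42, 7.24 and 7.20 in corn oil livers and 6.97, 6.99 and 7.11 in treated livers. Every treated liver lay below every corn oil liver. The difference was -0.26 (SE 0.098, limma adjusted p = 0.387), and between -0.31 and -0.20 when any single array was left out. Acads, the short-chain enzyme, read 6.68, 6.73 and 6.79 against 6.61, 6.51 and 6.68. These arrays did not overlap either, but the gap was narrow, and the difference was -0.13 (SE 0.087, limma adjusted p = 0.551). Without treated replicate 2 it was -0.088. Acadl, the long-chain enzyme, was at -0.17 (SE 0.11), or -0.091 without corn oil replicate 1. Neither its arrays nor those of Acadvl, the very long-chain enzyme, separated the groups. Acadvl read 5.54, 5.51 and 5.53 against 5.41, 5.38 and 5.54, a difference of -0.080 (SE 0.083), with a second probe at -0.047. Leaving out treated replicate 2 or 3 moved it to -0.049 or -0.13. Its 3 corn oil livers had an SD of 0.013, the smallest of the 29 genes, and treated replicate 3 stood at their level.

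The related dehydrogenases had differences in opposite directions. Acad9, which also serves the assembly of respiratory complex I, read 2.87, 3.08 and 2.95 against 3.07, 3.07 and 3.24, a difference of 0.16 (SE 0.10, limma adjusted p = 0.535). Corn oil replicate 2 lay above treated replicates 1 and 2 there, and without treated replicate 3 the difference was 0.10. Acad11 read 5.60, 5.61 and 5.56 against 5.61, 5.39 and 5.46, a difference of -0.11 (SE 0.091), and its second probe gave -0.11. The Acad11 difference was -0.17 without treated replicate 1 and -0.057 without treated replicate 2.

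In the later steps of the spiral, Echs1 stood at higher signal in treated livers and the other 4 genes at lower signal. Echs1, the short-chain enoyl-CoA hydratase, read 6.88, 6.98 and 6.99 in corn oil livers and 7.03, 7.34 and 7.19 in treated livers. Every treated liver was above every corn oil liver, and the difference was 0.24 (SE 0.11, limma adjusted p = 0.429). Acaa2, the mitochondrial 3-ketoacyl-CoA thiolase, read 7.14, 6.97 and 6.86 against 6.79, 6.67 and 6.76. Its treated livers all lay below its corn oil livers, with a difference of -0.25 (SE 0.10, limma adjusted p = 0.403). The second Acaa2 probe stood at -0.16 (SE 0.094, unadjusted p = 0.146). Hadh, the 3-hydroxyacyl-CoA dehydrogenase for medium and short chains, read 8.27, 8.22 and 8.19 against 7.81, 8.23 and 8.01, and its difference was -0.21 (SE 0.12, limma adjusted p = 0.517), at -0.11 without treated replicate 1 and -0.32 without treated replicate 2. Treated replicate 2 lay among the corn oil livers for this gene, and the second Hadh probe gave -0.23.

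Hadha and Hadhb encode the alpha and beta subunits of the mitochondrial trifunctional protein, which carries out the last 3 steps of the spiral on long chains. Hadha read 4.28, 3.94 and 3.95 against 3.75, 3.94 and 4.03 and Hadhb 3.53, 3.12 and 2.96 against 2.89, 3.06 and 3.08. In both, corn oil replicate 1 was the highest of the 6 livers and treated replicate 1 the lowest. Their differences were -0.15 (SE 0.13) and -0.19 (SE 0.16). Without corn oil replicate 1 they shrank to -0.043 and -0.030. Hadha was at -0.074 without treated replicate 1, and Hadhb at -0.31 without corn oil replicate 3. Of the 3 Hadha probes, the dimmer pair gave -0.22 (unadjusted p = 0.0464) and -0.37 (unadjusted p = 0.0351), so the brightest probe showed the smallest difference.

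Hadha and Hadhb were the only members whose RefSeq promoter windows overlapped. The genes lie head to head on opposite strands, and the windows share 200 bases that lie before both starts. The shared stretch is chr6:31907551-31907750 (GRCr8), with a GC content of 53.5%, given on the plus strand, along which Hadha is read. It is shown because it lies just upstream of both subunit genes, and no capitals are used.
Hadha and Hadhb shared stretch: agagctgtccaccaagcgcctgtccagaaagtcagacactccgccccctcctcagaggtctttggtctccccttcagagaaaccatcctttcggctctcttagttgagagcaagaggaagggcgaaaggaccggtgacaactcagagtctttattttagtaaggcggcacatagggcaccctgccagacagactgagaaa

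The auxiliary enzymes for unsaturated acyl chains differed in sign. Eci1, an enoyl-CoA isomerase, read 7.61, 7.25 and 7.17 against 6.77, 7.22 and 7.33, with a difference of -0.24 (SE 0.19). Treated replicate 1 alone was far below the rest, and without it the difference was -0.072, against -0.11 without corn oil replicate 1. Decr1, the dienoyl-CoA reductase, read 7.36, 7.37 and 7.27 against 7.34, 7.59 and 7.41, with a difference of 0.11 (SE 0.098), or 0.042 without treated replicate 2.

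Electron transfer genes stood near 0. Etfa and Etfb encode the subunits of the electron transfer flavoprotein, and Etfdh the enzyme that passes its electrons to ubiquinone. Etfa read 3.50, 3.44 and 3.23 against 3.32, 3.35 and 3.30 and Etfdh 4.95, 4.70 and 4.71 against 4.82, 4.60 and 5.04. The groups overlapped in both. Differences were -0.070 for Etfa (95% interval -0.31 to 0.17), 0.019 for Etfb (-0.25 to 0.29) and 0.036 for Etfdh (-0.31 to 0.38). The Etfa difference ran from -0.15 without corn oil replicate 3 to -0.013 without corn oil replicate 1, and was -0.046 without corn oil replicate 2.

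The ketone body enzymes also stood near 0, with wider intervals. Acat1, which joins 2 acetyl-CoA into acetoacetyl-CoA, read 4.57, 4.28 and 4.02 against 4.15, 4.15 and 4.61. Bdh1, which interconverts acetoacetate and 3-hydroxybutyrate, read 5.11, 4.72 and 5.27 against 5.29, 4.95 and 4.79. In each gene the treated livers spanned much of the range of the corn oil livers. The 95% interval was -0.46 to 0.48 for Acat1 and -0.48 to 0.44 for Bdh1, and a second Acat1 probe stood at -0.12.

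Of the branched-chain acyl-CoA dehydrogenases, Ivd, the isovaleryl-CoA dehydrogenase of leucine breakdown, read 4.12, 4.23 and 4.09 in corn oil livers and 4.24, 4.46 and 4.40 in treated livers. The treated livers lay above the corn oil livers by a narrow gap, and the difference was 0.22 (SE 0.097, limma adjusted p = 0.422). Acadsb, which acts in isoleucine breakdown, read 1.45, 1.51 and 1.52 against 1.52, 1.59 and 1.32, a difference of -0.018 (SE 0.10). Pcca and Pccb encode the subunits of propionyl-CoA carboxylase. Pccb read 4.25, 4.23 and 4.20 against 3.89, 4.21 and 4.21, with treated replicate 1 alone apart, and its difference of -0.13 (SE 0.11) became -0.021 without that array. Pcca read 3.67, 3.64 and 3.34 against 3.56, 3.47 and 3.67, and its 3 probes gave 0.016, -0.018 and 0.0015.

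**Figure D2:**
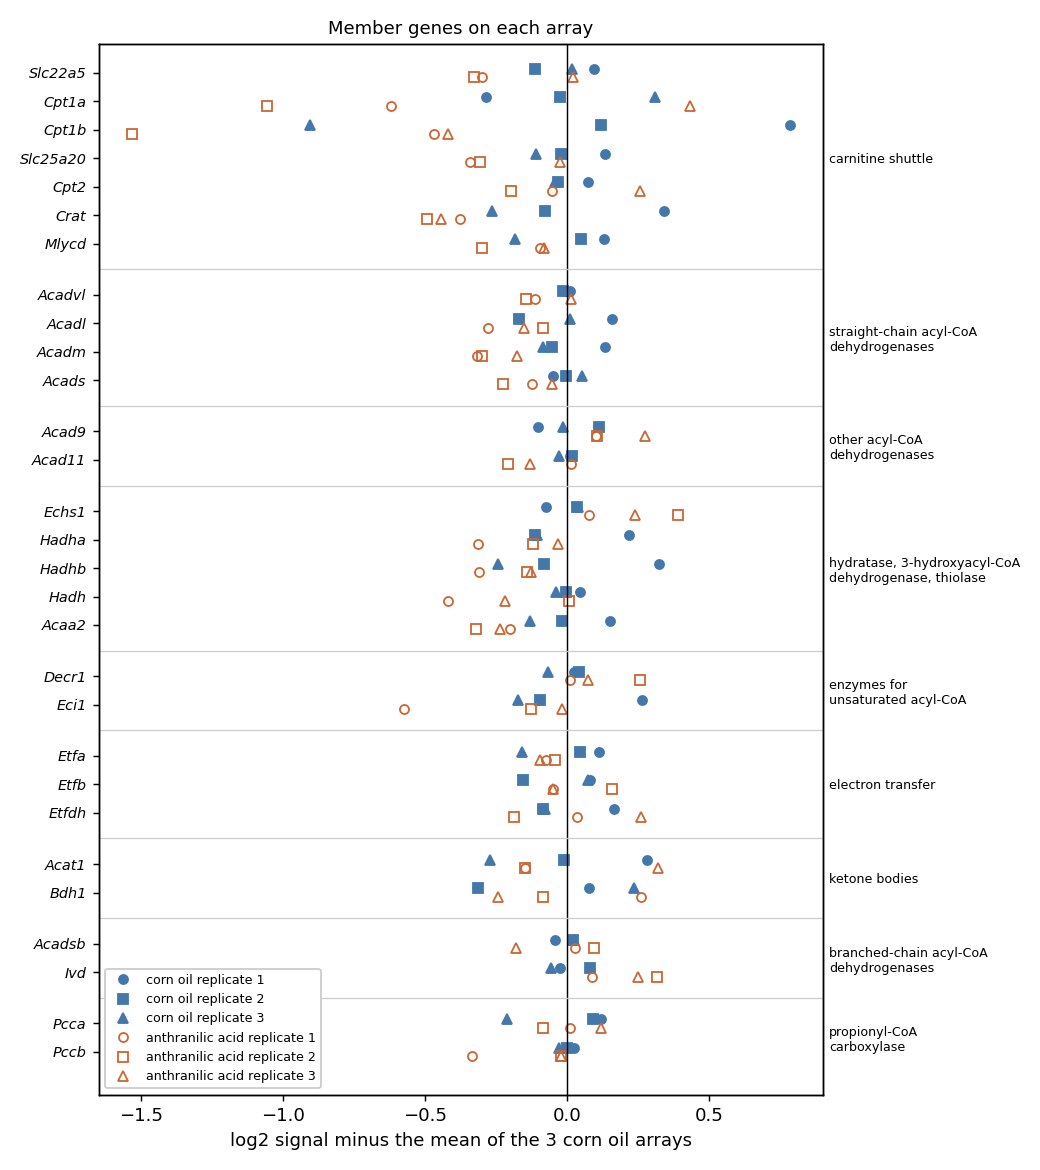
Log2 signal of each of the 29 genes on each of the 6 arrays, minus the gene's mean over the 3 corn oil arrays (x axis), ordered by step of the pathway. Filled blue symbols are corn oil livers and open orange symbols treated livers, with the shape giving the replicate. Cpt1b and Cpt1a spread most widely, and treated replicate 3 of Cpt1a lies above all 3 corn oil livers.

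By array, the members shifted together in some livers of both groups. Corn oil replicate 1 was the highest of the 3 corn oil arrays in 20 of the 29 genes, against 32.6% of all genes. Corn oil replicate 3 was the lowest of them in 17, against 35.8% of all genes. Anthranilic acid replicate 3 was the highest of the treated arrays in 16, against 37.2% of all genes. Relative to each gene's corn oil mean, the median over the members was 0.095, -0.015 and -0.057 in the corn oil livers and -0.12, -0.14 and -0.030 in the treated livers. Treated replicate 3 therefore lay within the range of the corn oil livers, and treated replicates 1 and 2 below it. Over all genes the same medians lay between -0.0025 and 0.019.

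A like pattern held in the carnitine shuttle, with medians of 0.13, -0.025 and -0.11 in corn oil livers and -0.34, -0.33 and -0.024 in treated livers. Treated replicate 3 was the highest treated array in 6 of the 7 shuttle genes, with Crat the exception. Straight-chain dehydrogenases had medians of 0.073, -0.033 and 0.0064 against -0.20, -0.19 and -0.10, with every treated liver below every corn oil liver. Hydratase-to-thiolase genes had 0.15, -0.019 and -0.11 against -0.31, -0.12 and -0.13, with a narrow gap between the groups. Within slide 1, which leaves out treated replicate 3, all 7 shuttle genes were below 0 with a median of -0.32. The median over all members was -0.18 there with 22 of 29 below 0, against 49.0% of all genes. Row on the slide and treatment cannot be told apart in these values. Without corn oil replicate 1 the members' median was -0.075 with 19 of 29 below 0, against 48.2% of all genes.

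**Figure D3:**
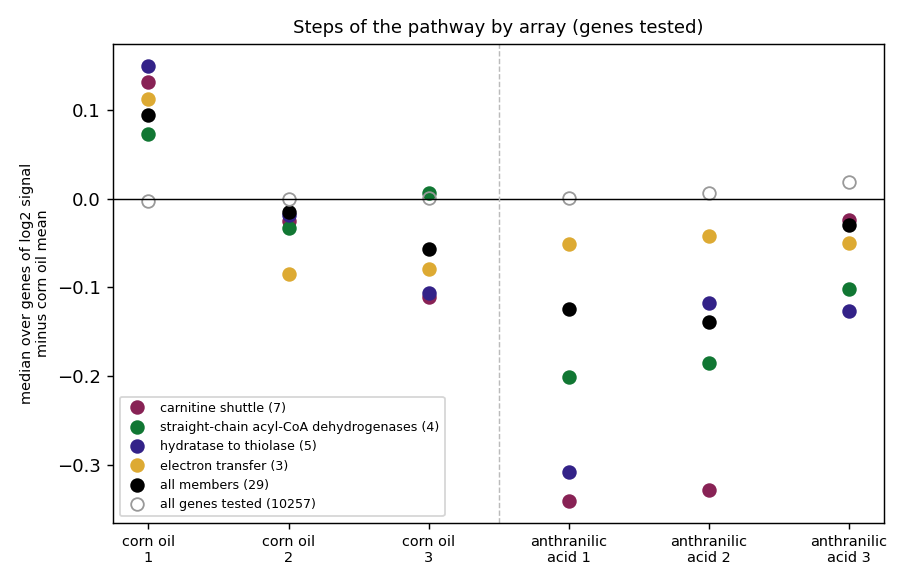
Median over the genes of a step of the log2 signal minus the gene's corn oil mean (y axis) on each of the 6 arrays (x axis), for 4 steps, all 29 members and all 10257 named genes tested. Corn oil replicate 1 has the highest median for each of the 4 steps, and the carnitine shuttle stands at -0.34 and -0.33 in treated replicates 1 and 2 but at -0.024 in treated replicate 3.

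Probes of the same gene agreed in sign for 8 of the 10 genes with more than 1 tested probe. The exceptions, Acat1 and Pcca, had all their probes between -0.12 and 0.016. Over all 41 tested probes, 31 stood below 0 and 10 above, where 49.9% of all tested probes were below 0. An unadjusted p under 0.05 was found for 5 of the 41, in Crat, Acadm, Hadha and Acaa2, all at lower signal in treated livers. Over all tested probes 6.52% were lower and 5.72% higher at that p.

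**Figure D4:**
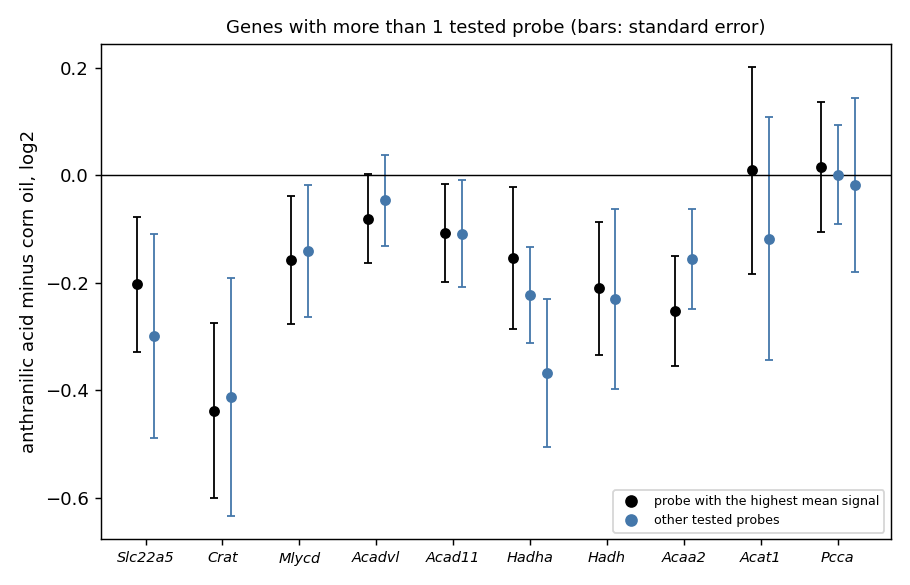
Difference between treated and corn oil livers at every tested probe of the 10 genes with more than 1 tested probe (y axis, log2 scale, bars give the standard error, 3 arrays per group). Black points are the brightest probe of a gene and blue points its others. Both Crat probes stand near -0.4, the 3 Hadha probes run from -0.15 to -0.37, and the probes of Acat1 and Pcca lie on both sides of 0.

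Cell type markers were set beside these values. Of the 10 hepatocyte markers, 9 were below 0, with a median of -0.088, and their summed linear signal was 5310 to 5465 in corn oil livers and 4967 to 5041 in treated livers, with no marker at background. Lymphocyte markers had a median of 0.35 over 7 genes, with summed signals of 2.10 to 2.27 against 2.70 to 3.48, and Cd3e was not well above background on any array. Kupffer cell and macrophage markers had 8 of 9 genes below 0 and a median of -0.19, with 170 to 208 against 154 to 195. Lyz2, a lysozyme of myeloid cells, was the exception at 0.53 (SE 0.099, limma adjusted p = 0.188), with every treated liver above every corn oil liver. Both neutrophil markers that passed the filter were above 0, with a median of 0.56 and sums of 1.49 to 2.47 against 1.72 to 3.51, and Elane was not well above background on any array. Cholangiocyte markers had a median of 0.45 over 4 genes, with 0.963 to 1.42 against 0.999 to 1.18, and did not share a direction. Epcam was at -0.53 (SE 0.17, limma adjusted p = 0.350), with every treated liver below every corn oil liver. The other cholangiocyte markers, Krt19, Krt7 and Cftr, were above 0. Krt7 and Cftr were dim, at -4.53 to -3.39 and -4.88 to -2.47 over the 6 arrays. The filter lets a probe pass through 1 group alone, so little weight rests on these values or on the cholangiocyte median. Erythroid markers had a median of 0.33 over 5 genes, with 633 to 1098 against 925 to 1192. Endothelial and stellate cell markers had medians of -0.018 and -0.0085. Of the endothelial markers, Lyve1 was at -0.34 (SE 0.10, limma adjusted p = 0.319) without overlap, and Eng was at 0.21 (SE 0.13). The part of the cell type markers in the members' differences was not tested.

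Genes around the pathway were followed in 7 further lists, with 65 of 73 genes tested. By limma 0 of the 65 passed, with 7 lower and 6 higher at an unadjusted p under 0.05, against 6.15% and 5.47% of all genes. Genes of fatty acid uptake and activation had a median of 0.12 over 12 genes. Cd36, a fatty acid translocase, read 3.10, 2.63 and 2.56 against 3.74, 3.89 and 3.13, with all treated livers above all corn oil livers and a difference of 0.82 (SE 0.24, limma adjusted p = 0.319). Acsl5, an acyl-CoA synthetase, was at 0.44 (SE 0.13, limma adjusted p = 0.308). The malonyl-CoA and thioesterase list had a median of -0.21 over 7 genes. Acot2, a mitochondrial thioesterase, read 5.51, 5.11 and 4.78 against 4.57, 4.51 and 4.30, with no overlap and a difference of -0.67 (SE 0.19, limma adjusted p = 0.316). Acaca, which makes malonyl-CoA, was at 0.62 (SE 0.22, limma adjusted p = 0.371).

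Branched-chain and propionate breakdown had 10 of 11 genes above 0 and a median of 0.13. Mccc2 of leucine breakdown read 3.47, 3.64 and 3.66 against 3.88, 3.85 and 3.87, without overlap, and its difference was 0.28 (SE 0.088, limma adjusted p = 0.339). Dbt, of the branched-chain keto acid dehydrogenase, was at 0.25 (SE 0.14). A further list of 5 tested genes, Nudt19, Eci2, Cpt1c, Hsd17b10 and Acsf2, had a median of 0.037. The coenzyme A hydrolase Nudt19 was at 0.41 (SE 0.12) and Eci2 at -0.099 (SE 0.11). In the list on ketone body export and use, Bdh2 read -1.06, -1.64 and -0.93 against -0.50, 0.44 and -0.21. Treated livers stood above corn oil livers, and the difference was 1.12 (SE 0.29, limma adjusted p = 0.282). Slc16a1, a monocarboxylate transporter that carries ketone bodies, was at -0.27 (SE 0.085, limma adjusted p = 0.336), without overlap.

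Peroxisomal oxidation, which shortens very long chains before they reach mitochondria, had 9 of 13 genes below 0 and a median of -0.20. Abcd3, a peroxisomal fatty acid transporter, read 7.10, 6.86 and 7.09 against 6.66, 6.73 and 6.77, all treated livers lower, with a difference of -0.30 (SE 0.10, limma adjusted p = 0.353). Crot, the carnitine octanoyltransferase, was at -0.69 (SE 0.25). PPAR-alpha targets outside oxidation had 10 of 12 genes below 0 and a median of -0.38. Plin2, a lipid droplet coat protein, read 7.18, 7.04 and 7.19 against 6.54, 6.58 and 6.88, with no overlap and a difference of -0.47 (SE 0.12, limma adjusted p = 0.268). Creb3l3, a liver transcription factor of fasting, was at -0.32 (SE 0.086). No difference between these lists and the members was tested.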

How the data were processed

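The 6 arrays were Agilent single-colour (Cy3) arrays. Per the file headers, the deposited spot intensity was background-subtracted and detrended by Agilent Feature Extraction 10.7.1.1 (10.7 per the submitters' processing notes), without normalization between arrays. The authors' deposited table gives a ratio of that signal to a single value per array, within 0.0355% to 0.126% of the 75th percentile, and served as an alternative.

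The log2 signal minus the array's 75th percentile over non-control probes was used, without control spots and 14 outlier spots. Probes well above background on all 3 arrays of a group, with at least 2 unflagged spots per group, were tested in limma 3.58.1 (R 4.3.3, lmFit and eBayes, two-sided) with Benjamini-Hochberg adjustment over all 33428. Genes were named by unversioned accession through the RefSeq table of GRCr8 (27460 probes), and the headers name rn4. The brightest tested probe on average represented a gene. Members and lists were chosen with earlier results of these data known. Named with every array's value were the members with the smallest p (10 or more) and the extremes of each step, and other lists were represented by their 2 genes with the smallest p. Array number limits precision. The procedure was tested on simulated data with independent noise and no slide effect. That check required only that log2 changes of 2 be estimated near 2, a size that no member reached. Alternatives covered background correction, scaling, filters, blocks, variance models, gene summaries and leaving out each array.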

Additional observations from a re-analysis of the deposited data

How the results depend on the processing

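Under all 17 alternative fits 0 of the 29 genes passed, and the median over them, which also had a summary over all probes, moved by less than the spread between replicates. It ran from -0.18 to -0.074. Both changes of filter, the replicate block and the trended variance cannot change a member's difference here, and the deposited table has nearly the main scaling. The median stayed at -0.13 under these, so they say little of its stability. The smallest adjusted p of any member over the 17 fits was 0.294 (Acadm, normexp). Over all probes the count past the threshold was 50 with normexp, 45 with a trended robust variance, 29 with array weights and 21 with median scaling. It was 2 without dim-probe filtering and 2 with only probes above background on all arrays. The slide block, equal to leaving out treated replicate 3, gave 6, and leaving out single arrays gave 2 to 8. The replicate number as a block gave 2. Deviations of same-numbered arrays correlated at 0.072, -0.051 and -0.043. Replicates 2 and 3 correlated better with another number, at 0.16, and replicate 1 about equally, at 0.071. Correlations this weak cannot decide on pairing. The labels give same-numbered arrays only a number in common, so pairing was not used.

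The sign turned for 7 genes near 0, none of which passed, and the other 22 kept theirs. Cpt2 was at -0.013 with normexp, -0.021 with the percentile over detected probes, -0.050 with quantile normalisation, -0.13 with the slide block and -0.011 with array weights. Acat1 was at -0.014 with that percentile, -0.039 with quantile normalisation, -0.15 with the slide block, -0.042 with array weights and -0.054 as a mean over probes. Pcca was at -0.025 with normexp, -0.0073 with that percentile, -0.023 with quantile normalisation, -0.035 with the slide block, -0.026 with array weights and -7.22e-05 as a mean over probes. Etfb was at -0.0038 with that percentile and -0.051 with quantile normalisation, and Etfdh at -0.025 with quantile normalisation and -0.076 with the slide block. Bdh1 was at 0.029 with median scaling, 0.088 with the slide block and 0.090 with array weights, and Acadsb at 0.033 with median scaling and 0.062 with the slide block. Leaving out single arrays gave -0.13 to 0.10 for Cpt2, -0.15 to 0.15 for Acat1, -0.090 to 0.076 for Pcca, -0.058 to 0.060 for Etfb, -0.076 to 0.15 for Etfdh, -0.18 to 0.096 for Bdh1 and -0.075 to 0.062 for Acadsb. Median scaling and the percentile over detected probes subtract a single value per array, so each moves all members by the same amount. The median over all genes went from 0.0085 to 0.060 and -0.015 under them. The cause of the other turns was not tested.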
